A study of Mus musculus with 6 samples.

Results

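Reelin signalling was followed through 7 genes: the ligand gene Reln, the receptor genes Vldlr and Lrp8, the adaptor genes Dab1, Crk and Crkl, and Pafah1b1, which encodes LIS1. These are 7 of the 55416 genes counted, taken by name from a working list, and each matched a single gene identifier. None of them encodes a kinase. The kinases of the pathway were followed with 54 other pathway genes. Reln was chosen by its counts in these same libraries (2199, 747 and 322 for control replicates 1 to 3, then 12229, 0 and 7617 for cKO replicates 1 to 3), so its levels are described here without a test. The other members were selected on what their proteins do, with earlier results of these data known.

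Reelin is a large secreted glycoprotein best known for placing migrating neurons in the layers of the cortex and cerebellum. It binds the lipoprotein receptors VLDLR and APOER2 (the product of Lrp8), and the adaptor DAB1 on their cytoplasmic tails is then phosphorylated by Src-family kinases. Phosphorylated DAB1 recruits CRK and CRKL and has been linked to LIS1, a regulator of the microtubule motor dynein. In the developing cortex reelin comes mainly from Cajal-Retzius cells and later from inhibitory interneurons, and in the cerebellum from granule cells.

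RNA came from oligodendrocyte precursor cells (OPCs), the progenitors of myelinating cells, taken from mouse cortex at postnatal day 11. Control samples (3) carried Pdgfra-Cre, 1 floxed and 1 wild-type Ift88 allele, and the RosaEYFP reporter. The cKO samples (3) carried the same Cre and reporter with both Ift88 alleles floxed, so Cre driven by the Pdgfra promoter was present in every sample. Ift88 is needed to build the primary cilium, and the comparison asks what depends on it. Each sample pooled 4 to 6 mice, so the replicate spread is a spread between pools. Sequencing started close to the 3' end of polyadenylated RNA, so a count stands for transcripts without a length correction. In bulk RNA of this kind, fewer cells of a type and less RNA per cell cannot be told apart.

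Several library-wide facts touch every value. Total counts were 11773548 to 13909236 in 5 libraries and 568509 in cKO replicate 2, where 3651 genes had a count, against 14047 to 16252 in the others. The OPC markers were uneven. Sox10 had 0 counts in all 6 libraries, Olig2 had 67 in cKO replicate 3 and 0 elsewhere, Pdgfra at most 155 and Cspg4 at most 273. Of 16 OPC markers, 5 had 0 counts in every library. Others were well counted in the 5 deep libraries, with 731 to 2929 counts of Ptprz1, 510 to 1936 of Cacng4 and 282 to 3784 of C1ql1. For Ift88 itself the control libraries held 143, 32 and 167 counts, the cKO libraries 1, 0 and 305. A 3' tag can lie outside the deleted exons, so these counts do not check the genotype.

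The shallow library held almost none of the pathway. In cKO replicate 2 the 7 genes together had 4 counts, 1 each for Vldlr, Lrp8, Crkl and Pafah1b1, against 8139 to 24185 in the other libraries. At the total count of that library, the Reln levels of the other 5 would have given 13.5 to 500 counts, and the Pafah1b1 levels 131 to 265. Across the genes tested without this library, 85.2% had 0 or 1 counts in it. Of 385 genes at least as abundant as Pafah1b1 in the other libraries, 11.9% did. A count of 0 there allows a level of up to 5.28 CPM (counts scaled to the library total, the usual CPM), and in the deeper libraries up to 0.216 to 0.255 CPM. These limits cover counting error only and treat each read as its own molecule, which PCR copies are not. The groups were therefore compared both with all libraries and without cKO replicate 2.

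**Figure D1:**
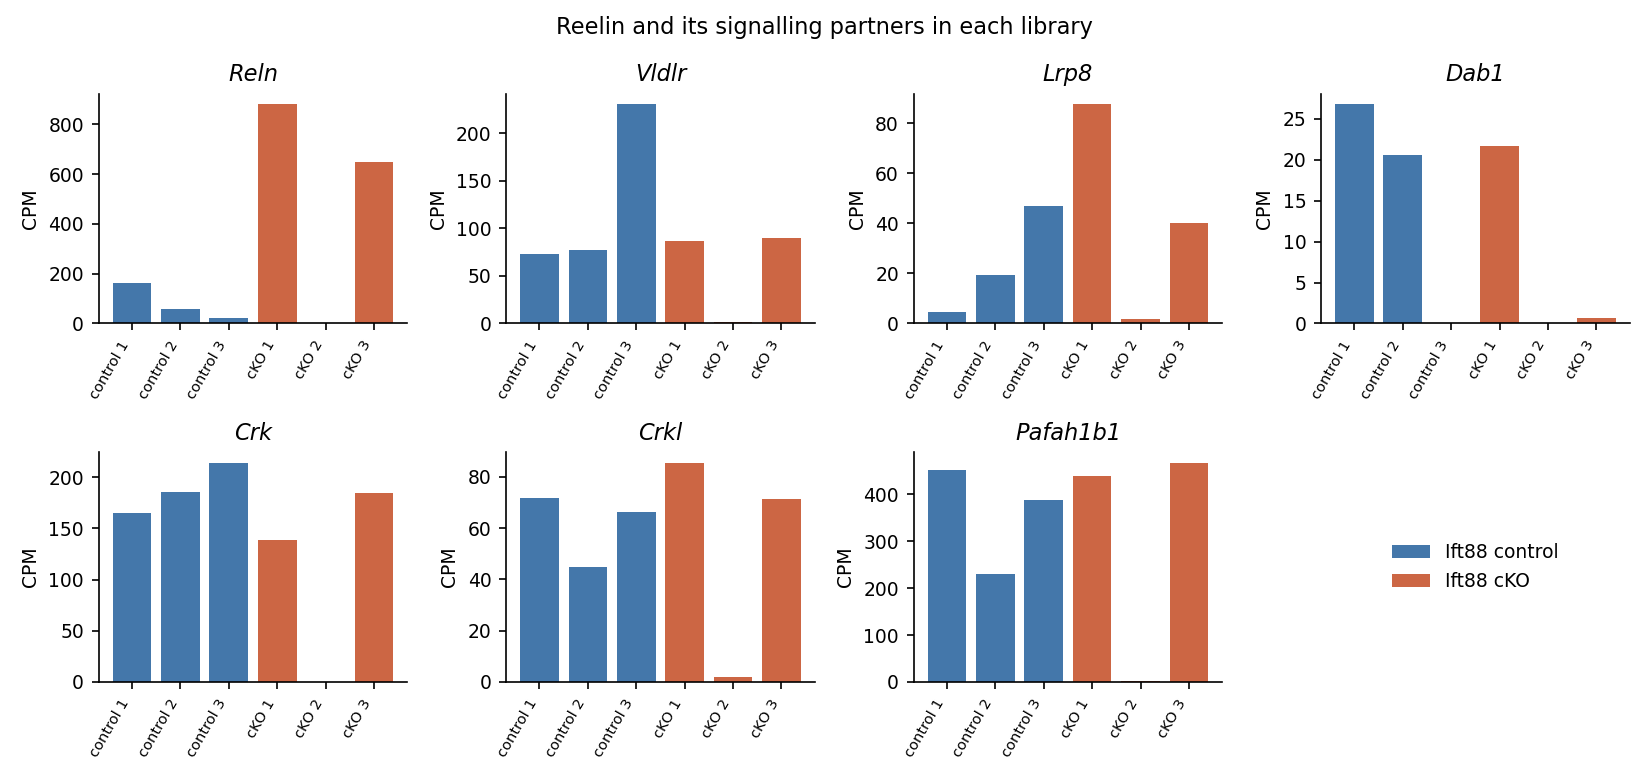
CPM (linear axis from 0, a separate scale for each gene) of the 7 genes in each library, with controls in blue and cKO in orange. Reln reaches 879 and 647 CPM in cKO replicates 1 and 3 and at most 161 CPM in a control, while the other 6 genes overlap between the groups and all 7 are at or near 0 in cKO replicate 2.

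Reln (ENSMUSG00000042453, GRCm39 chromosome 5, 22089452 to 22549700, minus strand) was at 161, 58.6 and 23.7 CPM in control replicates 1 to 3. Its levels in cKO replicates 1 to 3 were 879, 0 and 647 CPM. Both deep cKO libraries lay above every control, and cKO replicate 2 lay below every control. Control libraries averaged 81.1 ± 71.4 CPM, cKO libraries 509 ± 456 CPM (SD, n = 3), a ratio of 6.27. Without cKO replicate 2 the cKO mean was 763 CPM and the ratio 9.41. The log2 fold change fitted by edgeR was 2.64 with all libraries and 3.22 without cKO replicate 2. Under the alternatives tried it ran from 1.83 to 3.64 and from 2.62 to 4.23. Reln was chosen by these counts, so its steady positive sign is no support for a difference.

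Among all genes of a library, Reln ranked 107th by count in cKO replicate 1 and 182nd in cKO replicate 3. In the controls it ranked 1237th, 3222nd and 6526th. The ligand gene thus ran from near the top of the list, in the deep cKO libraries, to its middle, in control replicate 3. The controls differed among themselves by 6.79-fold between the highest and lowest. Such a range was reached by 14.0% of 10272 genes with a count in every control and a mean of at least 5 CPM over the deep libraries. Exons of Reln share 1.04% of their bases with Gm10475 on the other strand, and no other gene overlaps its last 500 exon bases, where 3' tags fall.

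Without cKO replicate 2, both receptor genes overlapped between the groups, unlike the ligand gene. Vldlr, which encodes the very low density lipoprotein receptor (ENSMUSG00000024924, chromosome 19, 27193884 to 27231631), was at 73.3, 77.8 and 231 CPM over the controls. Over the cKO libraries it was at 87.1, 1.76 and 90.3 CPM. Control replicate 3, the control with the least Reln, had the most Vldlr, and the deep cKO libraries lay between the controls. Fitted without cKO replicate 2, the log2 fold change was -0.48 (SE 0.54), with a Benjamini-Hochberg adjusted p = 0.9999 over 14562 genes in the quasi-likelihood test of edgeR. With all libraries it was -1.06 (SE 1.72, adjusted p = 0.9999, edgeR). Without control replicate 3 the 5-library value turned to 0.20.

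Lrp8, the gene of the second reelin receptor (ENSMUSG00000028613, chromosome 4, 107659066 to 107734037), was at 4.39, 19.2 and 47.0 CPM over the controls. Over the cKO libraries it was at 87.4, 1.76 and 40.1 CPM. It was highest in cKO replicate 1, but control replicate 3 exceeded cKO replicate 3, so the groups overlapped. Its log2 fold change was 1.503 without cKO replicate 2 (SE 0.91, adjusted p = 0.863, edgeR) and 0.93 with all libraries (SE 1.72, adjusted p = 0.9999, edgeR). With all libraries the direction rests on 1 library: without cKO replicate 1 the value was -0.14. Without cKO replicate 2 the value stayed positive under the alternatives tried, from 0.76 to 2.41, so a rise of Lrp8 is neither shown nor excluded. Controls differed by 10.7-fold between the highest and lowest, more than for any other member with a count in every control.

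The split of receptor counts between Vldlr and Lrp8 differed between libraries. The intervals given here cover counting error only and treat each read as its own molecule, so they do not measure the spread between pools. Vldlr gave 94.3% (95% Clopper-Pearson interval 92.8 to 95.7), 80.2% (77.9 to 82.4) and 83.1% (81.8 to 84.2) of the Vldlr and Lrp8 counts in control replicates 1 to 3. In cKO replicate 1 it gave 49.9% (47.9 to 51.9) and in cKO replicate 3 69.3% (66.9 to 71.6). Both deep cKO libraries lay below the controls in this share, which was computed after the values were seen and was not tested. Summed receptor levels ran from 77.7 to 278 CPM over the controls, and the 174 and 130 CPM of cKO replicates 1 and 3 fell inside that range. Counts of Reln per receptor count were 2.07, 0.604 and 0.0855 in control replicates 1 to 3, below the 5.04 and 4.96 of cKO replicates 1 and 3. This ratio contains the Reln counts by which the gene was chosen, and nothing is read from it.

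**Figure D2:**
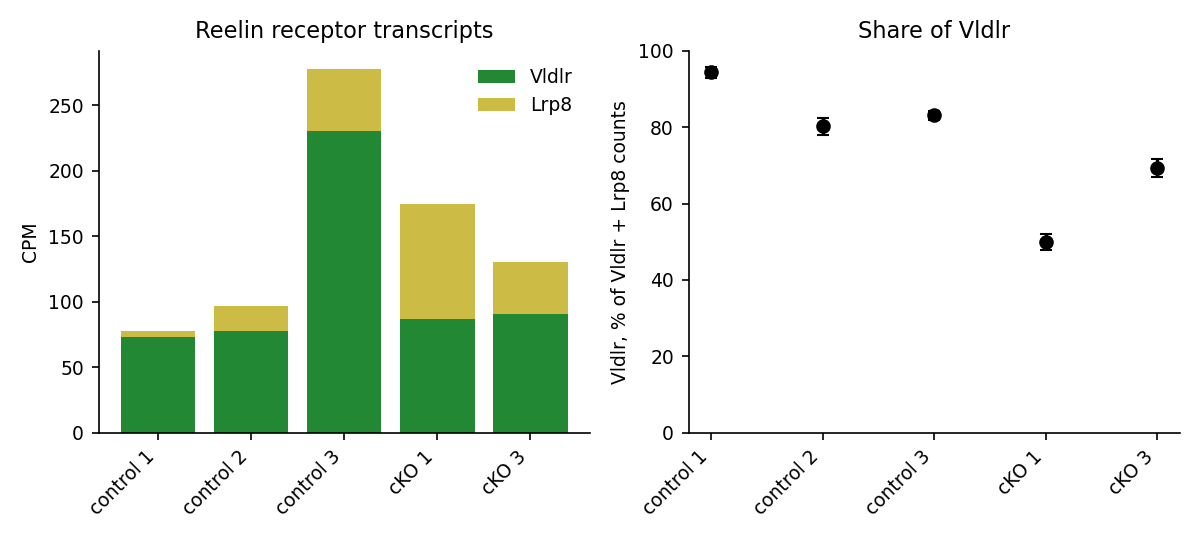
Left, stacked CPM of Vldlr (green) and Lrp8 (yellow) in the 5 deep libraries. Right, Vldlr as a percent of the counts of both genes with 95% Clopper-Pearson intervals (counting error only). The share is 80.2% to 94.3% in the controls and 49.9% and 69.3% in cKO replicates 1 and 3.

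Dab1, the adaptor that carries the reelin signal inside the cell, had the lowest mean CPM of the members in both groups, although Lrp8 lay below it in control replicates 1 and 2. Control libraries held 365, 263 and 0 Dab1 counts (ENSMUSG00000028519, chromosome 4, 103476556 to 104602041), cKO libraries 302, 0 and 8. Each group thus mixed libraries with 263 counts or more and libraries with 0 to 8. In CPM the values were 26.7, 20.6 and 0 against 21.7, 0 and 0.679. The log2 fold change was -0.48 without cKO replicate 2 (SE 2.25, adjusted p = 0.9999, edgeR) and -1.03 with all libraries (SE 1.99, adjusted p = 0.9999, edgeR). Without cKO replicate 1, which held nearly all cKO counts, these values were -4.58 and -5.06, and without cKO replicate 3 the 5-library value was 0.48.

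Crk and Crkl, the paralogous adaptors that bind phosphorylated DAB1, were steady in the 5 deep libraries. Crk (ENSMUSG00000017776, chromosome 11, 75570085 to 75597734) was at 165, 186 and 214 CPM over the controls and at 139, 0 and 185 CPM over the cKO libraries. Its controls spread by 1.29-fold from lowest to highest, the least of all members, and its log2 fold change without cKO replicate 2 was -0.21 (SE 0.30, adjusted p = 0.9999, edgeR). Crkl (ENSMUSG00000006134, chromosome 16, 17269851 to 17305298) was at 71.9, 44.8 and 66.4 CPM over the controls and at 85.5, 1.76 and 71.5 CPM over the cKO libraries. The order of Crkl over the deep libraries crossed once, since cKO replicate 3 lay just below control replicate 1.

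The log2 fold change of Crkl was 0.38 without cKO replicate 2 (SE 0.42, adjusted p = 0.9999, edgeR). With all libraries the fold changes were -0.80 for Crk (SE 1.53) and -0.19 for Crkl (SE 1.74), each with an adjusted p of 0.9999 by edgeR. In every deep library Crk exceeded Crkl, by 2.30, 4.14 and 3.22 times in the controls and by 1.62 and 2.58 times in cKO replicates 1 and 3.

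Pafah1b1 (ENSMUSG00000020745, chromosome 11, 74564775 to 74615496, minus strand) was the most abundant member in every control. Control libraries held it at 452, 231 and 387 CPM, cKO libraries at 439, 1.76 and 467 CPM, and Reln exceeded it in cKO replicates 1 and 3. Control replicate 2 was the low one among the deep libraries, and the other 4 lay within 387 to 467 CPM. The log2 fold change was 0.36 without cKO replicate 2 (SE 0.33, adjusted p = 0.9999, edgeR) and -0.23 with all libraries (SE 1.09, adjusted p = 0.9999, edgeR). Its pseudogene Pafah1b1-ps1 had 50 to 215 counts and Pafah1b1-ps2 19 to 392 in the deep libraries, and whether reads of near-identical copies were split between them was not tested.

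Of the 6 partners of Reln, 0 passed the test in either direction, with all libraries or without cKO replicate 2. Over all genes 2 of 12833 passed with all libraries (0.0156%, of which 0.00779% higher and 0.00779% lower). Without cKO replicate 2, 1 of 14562 passed, lower in cKO (0.00687%), and 0% were higher. At an unadjusted p under 0.05, 0 of the 6 passed in either edgeR fit, against 2.83% and 6.09% of all genes, and limma-voom and DESeq2 called 0 of them as well. With all libraries, DESeq2 gave no adjusted p for Vldlr, Lrp8, Dab1 and Crkl, so that fit could not call them. Standard errors of the 6 ran from 0.30 to 2.25 on the log2 scale, and differences of several standard errors could go undetected. The pathway gene Gsk3b, at 1.57 with SE of 0.37 without cKO replicate 2, did not pass (adjusted p = 0.767, edgeR). The median log2 fold change of the 6 was 0.07 without cKO replicate 2, where that of all genes was -0.06. With all libraries the medians were -0.51 and -0.44.

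Reln was the single member whose CPM did not overlap between the controls and cKO replicates 1 and 3. Among all genes tested, 13.0% were higher without overlap and 12.6% lower, but Reln was chosen for this difference and nothing is read from it. All 7 members overlapped once cKO replicate 2 was included, when 1.33% of all genes were higher without overlap and 11.1% lower.

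Outside the 7 members, 54 genes of the pathway were listed by role: the ligand side, the receptor side, kinases, partners of DAB1, the LIS1 and dynein set, and cytoskeletal targets. Of these, 50 could be tested with all libraries and 51 without cKO replicate 2, and 0 rose or fell in either edgeR test. At an unadjusted p under 0.05, 1 gene was higher and 0 were lower with all libraries, when 1.30% of all genes were higher and 1.53% lower. Without cKO replicate 2, 5 were higher and 0 lower, against 3.06% and 3.03% of all genes. DESeq2 without cKO replicate 2 called 2 of them, Dcx and Gsk3b, both higher in cKO, among 298 calls over all genes. Without cKO replicate 2, 17 of 51 (33.3%) were higher without overlap and 2 (3.92%) lower, against 13.0% and 12.6% of all genes. The median log2 fold change of the 51 was 0.39 (-0.06 for all genes). With all libraries it was 0.14 (-0.44 for all genes).

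On the ligand side, 0 of 5 tested genes passed. Thbs1, which encodes thrombospondin 1, a further ligand of both receptors, was at 65.7 ± 25.8 CPM in controls (SD, n = 3) and at 26.2 and 42.4 CPM in cKO replicates 1 and 3. Adamts3, a protease gene whose product cleaves reelin, was at 18.9 ± 14.3 CPM (SD, n = 3) against 16.7 and 9.0 CPM. Apoe, the apolipoprotein E gene, whose product binds the same receptor family, was at 65.2 ± 21.6 CPM (SD, n = 3) against 217 and 135 CPM, with a log2 fold change of 1.46 and SE of 0.43 without cKO replicate 2 (adjusted p = 0.767, edgeR). With all libraries the Apoe value was 0.86 (SE 1.72, adjusted p = 0.9999, edgeR), and cKO replicate 2 had 0 counts.

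On the receptor side, 0 of 12 tested genes passed, and 7 (58.3%) were higher in both deep cKO libraries than in every control, against 13.0% of all genes. The ephrin-B genes, whose products have been described as co-receptors for reelin, were all among these 7. Efnb1 was at 147 ± 22.2 CPM in controls (SD, n = 3) and at 255 and 346 CPM in cKO replicates 1 and 3, with a log2 fold change of 1.04 and SE of 0.29 without cKO replicate 2 (adjusted p = 0.767, edgeR) and of 0.45 and SE of 1.44 with all libraries (adjusted p = 0.9999, edgeR). Efnb2 was at 31.1 ± 26.4 CPM (SD, n = 3) against 95.0 and 187 CPM, and Efnb3 at 533 ± 394 CPM (SD, n = 3) against 1003 and 1371 CPM. Each had at most 1 count in cKO replicate 2. Control libraries held 254, 0 and 0 counts of Nectin1, a cell adhesion gene, and the deep cKO libraries 835 and 269. Itga3, an integrin subunit gene, had 61, 0 and 611 against 0 and 100.

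Among kinases and their subunits, 0 of 11 tested genes passed. Fyn, the main DAB1 kinase in brain, was at 239 ± 66.2 CPM in controls (SD, n = 3) and at 298 and 306 CPM in cKO replicates 1 and 3, and Src at 26.9 ± 4.39 CPM (SD, n = 3) against 49.7 and 58.4 CPM. Gsk3b, a kinase held in check by the reelin branch through AKT, was at 103 ± 24.5 CPM (SD, n = 3) against 369 and 231 CPM. Its log2 fold change without cKO replicate 2 was 1.57 with SE of 0.37 (adjusted p = 0.767, edgeR), and this value passed in DESeq2. With all libraries it was 1.42 (SE 1.42, adjusted p = 0.9999, edgeR). Cdk5, a neuronal kinase that acts in parallel with reelin, had 661 counts in cKO replicate 2, and its log2 fold change was 1.57 with that library and 0.08 without it. Pik3ca, a catalytic subunit of phosphoinositide 3-kinase, had 230 to 512 counts per control library, and 0 and 217 in the deep cKO libraries.

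Among partners of DAB1, 0 of 9 tested genes passed. Rnf7, a component of the ubiquitin ligase that degrades activated DAB1, had 160 to 307 counts per control library, and 0, 0 and 137 in the cKO libraries. Rap1a, a small GTPase of the CRK branch, had 105, 333 and 218 against 12, 0 and 157.

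In the LIS1 and dynein set, 0 of 11 genes tested without cKO replicate 2 passed. Dcx, the doublecortin gene of migrating neurons, was at 129 ± 80.3 CPM in controls (SD, n = 3) and at 686 and 621 CPM in cKO replicates 1 and 3, with a log2 fold change of 2.33 and SE of 0.60 without cKO replicate 2 (adjusted p = 0.767, edgeR). With all libraries the Dcx value was 1.75 (SE 1.20, adjusted p = 0.9999, edgeR). Among the deep libraries it was lowest in control replicate 3, as Reln was. Dync1h1, the dynein heavy chain gene, had 915 counts in cKO replicate 2, and its log2 fold change was 2.78 with that library and 1.19 without it (unadjusted p = 0.0116 and 0.132, adjusted p = 0.9999 and 0.850, edgeR).

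Of the 3 cytoskeletal genes, 0 passed. Mapt, which encodes tau, was at 35.0 ± 25.3 CPM in controls (SD, n = 3) and at 91.2 and 121 CPM in cKO replicates 1 and 3. Cfl1, the cofilin gene, was at 1533 ± 489 CPM (SD, n = 3) against 1437 and 1312 CPM, and another annotated gene overlaps 70.8% of its last 500 exon bases.

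**Figure D3:**
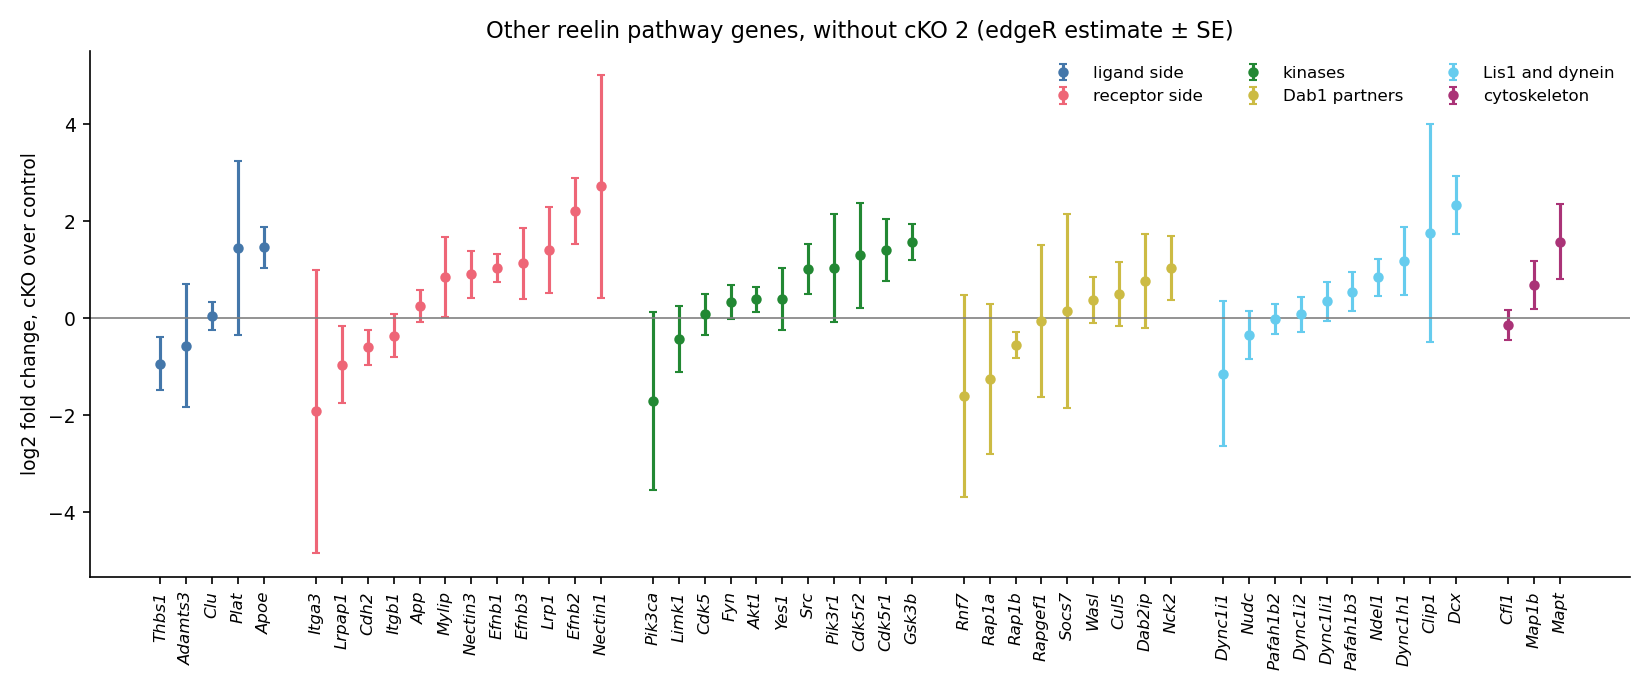
Log2 fold change, cKO over control, of the tested pathway genes without cKO replicate 2, ordered within each role (points are edgeR estimates, bars 1 SE). Dcx at 2.33, Efnb2 at 2.22 and Gsk3b at 1.57 lie among the highest with short bars, and 0 of 51 pass the test. Nde1 is left out because of its large SE of 4.53. Its value of -9.55 rests on 0 counts in the cKO libraries.

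Markers of cells that can make reelin were followed beside Reln, as whole lists. The 12 general neuron markers summed to 8128, 6559 and 2471 CPM over the controls and to 8683, 2172 and 9099 CPM over the cKO libraries. The control with the least Reln was also the one with the least neuronal signal. As a percent of these sums, Reln was at 1.98%, 0.893% and 0.960% in control replicates 1 to 3, and at 10.1%, 0% and 7.11% in cKO replicates 1 to 3. These percentages contain the Reln counts by which the gene was chosen, and nothing is read from them.

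Cajal-Retzius markers (9 genes) summed to 59.6 to 319 CPM over the controls and to 351, 0 and 343 CPM over the cKO libraries. Their defining gene Trp73 had 0 counts in all 6 libraries and Lhx1 had 154 to 349 counts per control library and at most 1 per cKO library. Ebf3 and Calb2, which other neurons also express, made up most of the cKO sums, with 2490 and 2667 counts of Ebf3 in cKO replicates 1 and 3. Of 7 tested members, 0 passed. GABA interneuron markers (12 genes) did not follow Reln, with sums of 519, 1233 and 65.0 CPM over the controls and 167, 7.04 and 93.3 CPM over the cKO libraries. Gad1 had 61 to 992 counts per control library and 0 in every cKO library, and 0 of 5 tested members passed. The filter kept Gad1 and Lhx1 only through the control libraries, so their direction was fixed by it.

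Cerebellar granule cell markers (10 genes) summed to 2331, 2195 and 1410 CPM over the controls and to 3168, 510 and 2946 CPM over the cKO libraries. Of 8 members tested without cKO replicate 2, 0 passed, 6 were higher without overlap and 1 was lower, against 13.0% and 12.6% of all genes. Among the 6, Barhl1 and Atoh1 had 0 counts in every control. The filter kept these genes only through the cKO libraries, so their direction was fixed by it. The lower one was Pax6, a transcription factor gene, at 33.1, 71.5 and 34.0 CPM over the controls and at 5.54, 0 and 17.8 CPM over the cKO libraries. Neurod1, another transcription factor gene of the list, overlapped, with 524, 2282 and 87 counts over the controls and 213, 1 and 341 over the cKO libraries. Control libraries held 841, 1216 and 136 counts of Cbln1, a synaptic organizer secreted by granule cells, and cKO libraries 5866, 0 and 5606. Atoh1, a transcription factor of granule cell progenitors, had 0 counts in every control and 280, 0 and 21 over the cKO libraries, and Gabra6, a receptor subunit gene of mature granule cells, had 0 in all. OPC markers (16 genes) summed to 280 to 531 CPM over the controls and to 373, 7.04 and 326 CPM over the cKO libraries. Of 9 OPC markers tested without cKO replicate 2, 0 passed. Of these 9, 5 (55.6%) were higher without overlap and 1 (11.1%) was lower, against 13.0% and 12.6% of all genes. The lower one, C1ql1, was at 174 ± 108 CPM in controls (SD, n = 3) against 20.3 and 29.1 CPM in cKO replicates 1 and 3. Choroid plexus markers (8 genes) summed to 211, 72.6 and 12.9 CPM over the controls and to 473, 46421 and 696 CPM over the cKO libraries, and 0 of 3 tested members passed. Most of the cKO sums came from Ttr, the transthyretin gene, with 2 to 343 counts per control library and 5224 to 26120 per cKO library. Aqp1, a water channel gene, did not follow it, at 186, 56.2 and 12.7 CPM over the controls and 69.9, 0 and 58.0 CPM over the cKO libraries. Kl had 0 counts throughout, and Folr1, Clic6, Kcnj13 and Prlr had at most 1 count in every library but cKO replicate 3, where they had 50 to 115. The part of any of these cell types in the Reln difference was not tested.

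**Figure D4:**
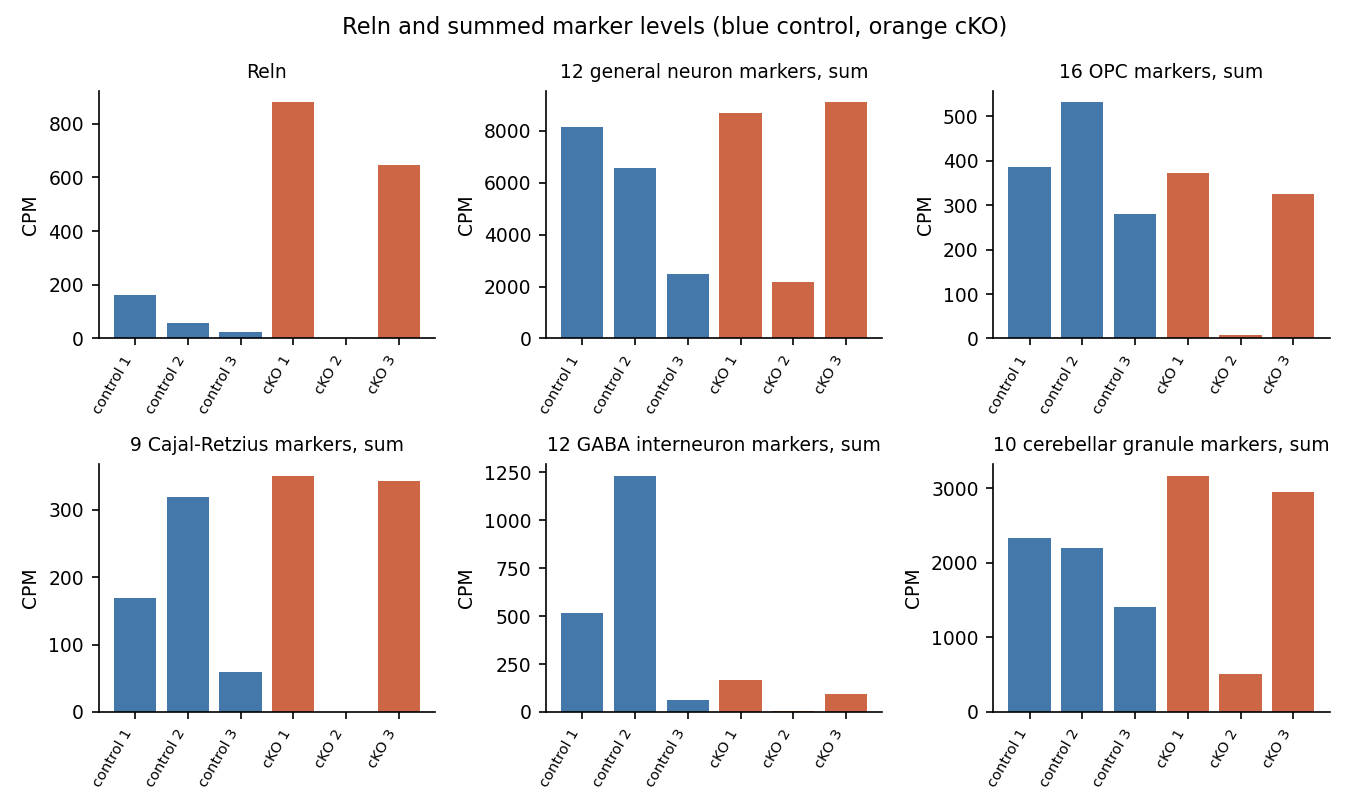
CPM of Reln and summed CPM of 5 marker lists in each library (linear axes from 0, controls blue, cKO orange). Reln and the general neuron, Cajal-Retzius and cerebellar granule cell sums are highest in cKO replicates 1 and 3. The OPC and GABA interneuron sums are highest in control replicates 1 and 2, the latter at 519 and 1233 CPM.

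The genes closest to Reln in profile over the 5 deep libraries were found by the root mean square difference between mean-centred log2(CPM + 1) values, among 9333 other genes. In order they were Ndp (0.17), Slc7a8 (0.27), Gpat3 (0.35), Dtx1 (0.42), Ephb6 (0.44), Stambpl1 (0.45), Ephb1 (0.46) and Cacnb4 (0.47). Slc7a8, an amino acid transporter gene, was at 25.6, 11.4 and 1.92 CPM over the controls and at 124, 0 and 88.4 CPM over the cKO libraries. Ephb1, a receptor gene for ephrin-B ligands, was at 62.7, 32.1 and 7.67 CPM against 189, 0 and 181 CPM. Ndp, which encodes the secreted protein norrin, had the closest profile at a far lower level, at 4.98, 1.25 and 0 CPM against 24.9, 0 and 19.2 CPM. Of the 8, 7 had 0 counts in cKO replicate 2 and Dtx1 had 246. Across the genes tested without that library, 85.2% had 0 or 1 counts in it, so nothing is read from these 0 counts. With a pseudocount of 5 CPM, 2 of the 8 stayed among the closest 8, Slc7a8 and Ephb1, and with all 6 libraries 1 did, Ephb1.

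The partners of Reln were not close to it by the same measure. Pafah1b1 and Crkl ranked 2297th and 2321st of 9333 with differences of 1.79 each, and Dab1 ranked 7013th with 2.47. These ranks describe 5 libraries and carry no test.

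**Figure D5:**
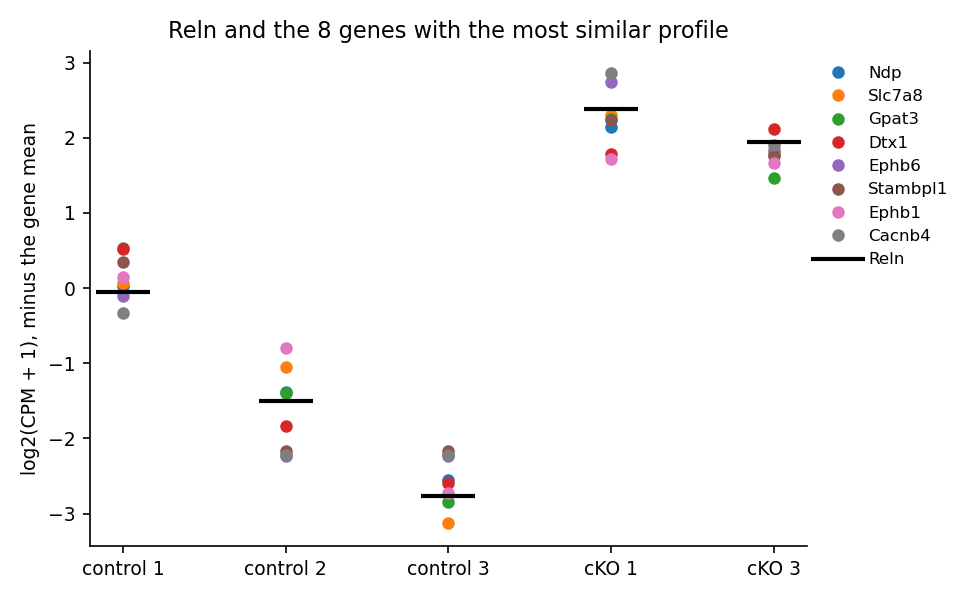
Mean-centred log2(CPM + 1) of Reln (black bars) and of the 8 genes with the smallest root mean square difference from it (points) in the 5 deep libraries. The 9 genes are lowest in control replicate 3 or share their lowest value between control replicates 2 and 3, and are highest in the cKO libraries.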

How the data were processed

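The authors deposited raw counts of reads for each gene, from 3' tag libraries (QuantSeq FWD, per the labels' protocols). The authors made the counts with featureCounts 2.0.0 on exons summed by gene identifier, Ensembl release 104 of GRCm39, per the file headers. No strand or multi-mapping option is named there, so overlapping strands cannot be told apart and multi-mapped reads were left out by default. STAR, FastQC and DESeq2 are named per the submitters' processing notes. Symbols were matched by identifier for 52083 of 55416 genes.

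Genes kept by filterByExpr were scaled by TMM and tested with edgeR 4.0.16 (quasi-likelihood, robust, two-sided, R 4.3.3), cKO against control with 3 samples each, adjusted by Benjamini-Hochberg over all genes tested, threshold 0.05, and again without cKO replicate 2. CPM used library totals without TMM. The SE given with edgeR values is the absolute log2 fold change divided by the square root of the quasi-likelihood F statistic. The edgeR step was tested on simulated data with less spread (dispersion) than fitted here, 1.79 with all libraries and 1.32 without cKO replicate 2. Its performance at the spread of these libraries was not tested.

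The members, lists and tests were chosen with earlier results of these data known. Named beside the members were the 2 genes of smallest p in each role and the 8 genes closest to Reln. Apoe, Efnb1, Efnb2, Efnb3, Fyn, Src, Gsk3b, Lhx1, Ebf3, Calb2, Cbln1, Atoh1, Barhl1, Gabra6, Pax6, Neurod1, Ptprz1, C1ql1, Cacng4, the choroid plexus genes other than Ttr and the pseudogenes were named after their values were seen. Alternatives were RLE, upper-quartile and no scaling, DESeq2 1.42.0, limma-voom (limma 3.58.1), no filter, a block for the replicate number, a floor of 5 CPM in 3 samples, fits without each library, and levels over the upper mode of a library (the centre of the fullest quarter-log2 bin of counts of at least 20).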

Additional observations from a re-analysis of the deposited data

How the results depend on the processing

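No partner of Reln passed the test under any alternative. The DESeq2 fit of all 6 libraries gave no adjusted p for Vldlr, Lrp8, Dab1 and Crkl. It gave none for pathway genes such as Thbs1 and Adamts3 either, so it could not call these genes. The only count that moved was that of pathway genes without cKO replicate 2, from 0 to 2 with DESeq2 (Dcx, log2 fold change 2.36, adjusted p = 0.00649, against 0.767 by edgeR, and Gsk3b). Leaving out each of the 6 libraries in turn gave 0 partners and 0 pathway genes, and Reln values of 1.95 to 3.64. Without cKO replicate 2, leaving out a further library gave Reln values of 2.77 to 4.23. Reln was chosen by its counts, so these values are description only.

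Some signs changed, with the cause not tested, also for values away from 0 such as the 6-library -2.43 for Itga3, -1.03 for Dab1 and 0.93 for Lrp8. With all libraries, limma-voom gave 0.32 for Dab1, upper-quartile scaling 0.29 for Crkl and 2.95 for Cfl1, and RLE scaling and DESeq2 each 0.26 for Cfl1. Leaving out libraries gave ranges of -0.14 to 1.86 for Lrp8, -0.75 to 0.38 for Crkl, -0.63 to 0.36 for Pafah1b1 (0.0025 without control replicate 1) and -10.43 to 0.33 for Itga3. Without cKO replicate 2, limma-voom gave 0.81 for Dab1 and 0.19 for Adamts3, upper-quartile scaling -0.027 for Cdk5 and the upper mode -0.10 for both Crkl and Pafah1b1. Leaving out a further library gave -0.74 to 0.20 for Vldlr, -4.58 to 0.48 for Dab1 (0.13 without control replicate 1), -10.74 to 0.86 for Itga3, -0.50 to 0.48 for Cdk5 (-0.15 without control replicate 3) and -0.35 to 0.12 for Cfl1.

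Deviations of same-numbered replicates had correlations of 0.08, 0.05 and -0.01 over 12833 genes, and those of differently numbered ones -0.07 to 0.02. With so few libraries, and cKO replicate 2 so shallow, these values cannot decide whether the numbers pair the samples. With the replicate block 0 partners and 0 pathway genes passed, as without it, and the 5-library values were 1.77 for Dab1, 0.64 for Adamts3 and 0.14 for Cfl1.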
